A study of Homo sapiens with 8 samples.

Results

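Of the 58735 genes with a value in these libraries, 10 long noncoding RNAs (lncRNAs) are described here: MALAT1, NEAT1, KCNQ1OT1, TUG1, MEG3, OIP5-AS1, NORAD, GAS5, SNHG1 and MIR22HG. They were chosen by name, as RNAs known to be kept in the nucleus or to be abundant in many cells, and each symbol was matched to its Ensembl gene through release 29 of GENCODE. RNA was sequenced from U2OS cells, an established human osteosarcoma line, in 4 groups of 2 libraries. Control cells (genotype WT) carried a control hairpin, shControl, and KD cells (WSB2 knockdown) carried a hairpin against WSB2, shWSB2, which encodes a substrate-recognising subunit of a ubiquitin ligase. Both were stable lines selected with puromycin after lentiviral infection, and each was left without treatment or given TNF-α, the cytokine that activates NF-κB, for 5 h. Which WSB2 hairpin was sequenced and the dose of TNF-α are not given in the sources used here. Nothing states that the 2 libraries of a group came from separate cultures, so the p-values measure the spread between these libraries, which may be technical.

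An lncRNA is transcribed and usually spliced like an mRNA but is not translated into a known protein, and where it stays in the cell sets what it can bind. MALAT1 gathers in nuclear speckles, which store splicing factors, NEAT1 is the scaffold of paraspeckles, and KCNQ1OT1 and MEG3 act at imprinted loci. TUG1 and MIR22HG, the host of miR-22, are found in the nucleus and outside it, whereas NORAD, which binds PUMILIO proteins, OIP5-AS1 (cyrano), and the spliced snoRNA host transcripts GAS5 and SNHG1 are found largely in the cytoplasm. Whole-cell RNA was sequenced, so the words nuclear and cytoplasmic below stand for what is known of each RNA and not for a measurement in these cells. In bulk RNA, a change per cell and a change in the number of cells that carry the RNA cannot be told apart.

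The sequences below, from GENCODE 29 on GRCh38, show what sets the nuclear scaffolds and NORAD apart. The last part of MALAT1 and of the long NEAT1 isoform can fold into a triple helix that protects a 3′ end without a poly(A) tail; its U-rich stretches and its A-rich tract are in capitals (written with T). The first is chr11:65506007-65506116 and the other chr11:65445431-65445540, both on the plus strand and both exonic.

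MALAT1: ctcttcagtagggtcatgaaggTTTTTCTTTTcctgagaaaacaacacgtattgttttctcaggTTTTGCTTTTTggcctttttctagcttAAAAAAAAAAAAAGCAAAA

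NEAT1: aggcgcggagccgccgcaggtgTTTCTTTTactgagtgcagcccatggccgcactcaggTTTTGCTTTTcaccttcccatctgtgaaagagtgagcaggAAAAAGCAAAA

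The end of the A-rich tract, AAAAAGCAAAA on the RNA strand, was taken from the last bases of the longest NEAT1 transcript. Its match in NEAT1 was therefore given. Of the other members, only MALAT1 had it within the last 400 bases of its longest transcript. Of the 16520 tested genes with a transcript sequence, 31 (0.188%) had it there. NORAD carries the PUMILIO recognition motif TGTANATA many times. Its single 5339-base exon held 15 matches on the RNA strand, 10 of them TGTATATA, 4 TGTAAATA and 1 TGTACATA, with no overlap between matches. Windows of 30 bases around 5 of them follow, all on the minus strand of chromosome 20, with the motif in capitals. They show the 2 commonest forms, each in flanks that resemble each other.

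NORAD site 2, chr20:36049803-36049832: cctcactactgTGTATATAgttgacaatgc

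NORAD site 11, chr20:36047971-36048000: caaccctactgTGTATATAgcggacaaact

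NORAD site 14, chr20:36047350-36047379: caatgctactgTGTATATAatggaaaactt

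NORAD site 3, chr20:36049702-36049731: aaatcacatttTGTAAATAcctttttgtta

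NORAD site 6, chr20:36049118-36049147: aaataccacttTGTAAATAtctttttgcta

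That is 2.81 matches per kb in NORAD. The longest transcripts of the other members held from 0 per kb in MALAT1, GAS5 and MIR22HG to 0.361 per kb in SNHG1. Among the 14998 tested genes with a transcript of at least 1000 bases, 3 (0.02%), NORAD included, reached the density of NORAD, and 29.98% of all tested genes with a sequence held the motif at least once. A match describes these letters and is not a measured binding site.

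The 2 snoRNA hosts belong to a class whose transcripts often open with a run of pyrimidines, and the first 30 bases of their longest transcripts are shown with that run in capitals. GAS5 opened with 6 pyrimidines (chr1:173867960-173867989, minus strand) and SNHG1 with 3 (chr11:62855856-62855885, minus strand). A first C within a run of 6 or more was found in 1.72% of the tested genes.

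GAS5: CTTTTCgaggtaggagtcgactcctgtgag

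SNHG1: CTCatttttctactgctcgtggtaagtggc

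MIR22HG is shown by the product it is named for, miR-22-3p, with the seed (bases 2 to 8) in capitals. RefSeq (GRCh38.p14) places it at chr17:1713914-1713935 on the minus strand, inside an exon of MIR22HG. These libraries measure the host transcript, and the miRNA itself was not analysed here.

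hsa-miR-22-3p: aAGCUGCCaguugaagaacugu

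The 10 genes lie on 7 chromosomes of GRCh38. NEAT1 (ENSG00000245532, chr11:65422774-65445540) and MALAT1 (ENSG00000251562, chr11:65497688-65506516) neighbour each other on the plus strand, KCNQ1OT1 (ENSG00000269821, chr11:2608328-2699994) runs antisense to KCNQ1, and SNHG1 (ENSG00000255717, chr11:62851988-62855914) is on the same chromosome. MEG3 (ENSG00000214548) is at chr14:100779410-100861031, TUG1 (ENSG00000253352) at chr22:30969245-30979395 and MIR22HG (ENSG00000186594) at chr17:1711493-1717174. NORAD (ENSG00000260032) is at chr20:36045622-36050960, OIP5-AS1 (ENSG00000247556) at chr15:41283990-41309737 and GAS5 (ENSG00000234741) at chr1:173863900-173868882. Whether counting used the strand is not given in the sources used here. Exons on the opposite strand with reads of their own overlapped 3 members: OIP5 shared 470 bases with OIP5-AS1 and had 2646 reads in the 8 libraries against 9685, KCNQ1 shared 121 bases with KCNQ1OT1 and had 154 reads against 382, and GAS5-AS1 shared 42 bases with GAS5 and had 40 against 14951. Reads from these shared stretches cannot be assigned with certainty, and the FPKM of NEAT1 sums its short and long isoforms.

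The values are FPKM, fragments scaled to exon length and library size, and whole reads could be recovered from them, 15601098 to 18677023 per library. WSB2 itself was at 27.7 and 28.0 FPKM in control and 8.38 and 8.52 in KD libraries without TNF-α, and at 25 and 25.3 against 9.002 and 9.18 with it. It fell by 1.61 and by 1.37 on the log2 scale (adjusted p = 0.000119 and 0.00113, limma), in the direction of its labels. Of the markers of the line, VIM, SPARC and COL1A1 were at 146 to 293 FPKM and RUNX2 at 1.29 to 2.94, COL1A2 reached at most 0.0934 and TWIST1 was at 0 in all 8 libraries; the markers of other cell types (PTPRC, CD3E, EPCAM, CDH1, PECAM1, ALB) did not exceed 0.482 FPKM.

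Both KD libraries without TNF-α stood apart from the other 6. They had reads in 26225 and 26397 genes against 22072 to 22957, mitochondrial reads of 4.10% and 4.42% against 1.11% to 2.03%, and a mean exonic GC content per read of 49.95% and 49.5% against 52.6% to 53.3%. Because they are the whole of their group, no comparison of that group can be made without them, and the KD comparison with TNF-α is the only KD comparison that does not use them. What these measures had to do with the members was not tested, apart from a fit with GC content and exon length removed that stands beside the results.

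By FPKM, the name abundant held for some members only. It is not known from the sources used here whether poly(A) RNA was selected. MALAT1 and the long NEAT1 isoform can end without a poly(A) tail, so their FPKM may understate their amount in the cells, which was not tested. Averaged over the 8 libraries, NORAD was at 36.2 FPKM, above 91.8% of the 16528 genes tested, GAS5 at 30.3 (90.1%) and SNHG1 at 14.8 (80.6%). TUG1 (6.74 FPKM), MALAT1 (5.57) and OIP5-AS1 (5.47) were at percentiles 61.9 to 66.2, and MIR22HG (2.89) and NEAT1 (2.84) were near the middle. The means of MALAT1, TUG1 and NEAT1 are carried by the KD libraries without TNF-α (16.5, 14.9 and 7.42 FPKM). In the other 3 groups MALAT1 averaged 1.56 to 2.21, TUG1 3.67 to 4.33 and NEAT1 0.976 to 1.67. KCNQ1OT1 was at 0.0283 FPKM, above 0.109% of the tested genes, with 382 reads in all. MEG3 had 1 read in the 8 libraries, in control cells with TNF-α, replicate 2, and in each of the others 0 reads, which allows a share of up to 1.92e-05% of the reads in the shallowest library. It did not pass the filter on low reads, so 9 of the 10 members were tested.

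In control cells without TNF-α the order of mean levels was GAS5, NORAD, SNHG1, OIP5-AS1, TUG1, MIR22HG, MALAT1, NEAT1 and KCNQ1OT1. The libraries overlapped for 4 neighbouring pairs in that order: GAS5 with NORAD, OIP5-AS1 with TUG1, MIR22HG with MALAT1, and MALAT1 with NEAT1. In KD cells without TNF-α NORAD came first and MALAT1 was number 4, overlapping with TUG1.

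**Figure D1:**
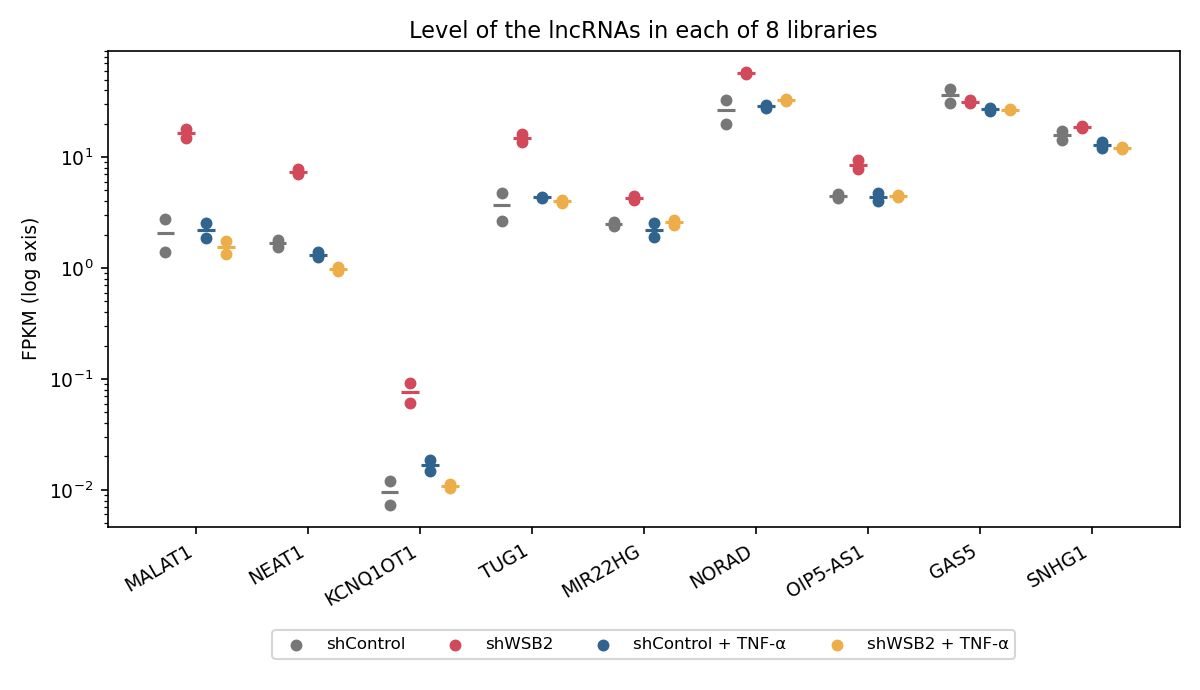
FPKM on a log axis of the 9 tested lncRNAs in each of the 8 libraries, with a point per library and a line at the mean of each group of 2. The KD libraries without TNF-α (red) lie above all other libraries for MALAT1, NEAT1, KCNQ1OT1, TUG1, MIR22HG, NORAD, OIP5-AS1 and SNHG1, but not for GAS5; MEG3, with 1 read in all, is not drawn.

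The first comparison set KD cells against control cells, both without TNF-α. MALAT1, NEAT1 and TUG1 were several times higher in KD cells, NORAD, OIP5-AS1 and MIR22HG rose less, and neither snoRNA host passed the test. In all, 6 of 9 tested members were higher and none lower at an adjusted p under 0.05, while 60.1% of all tested genes were called, 29.8% higher and 30.2% lower. Fold changes and standard errors below are on the log2(FPKM + 1) scale, which understates changes of genes near or under 1 FPKM, and adjusted p-values are from limma over all tested genes.

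MALAT1 was at 1.38 and 2.76 FPKM in the control libraries and at 15.02 and 17.9 in the KD libraries. The lower KD library was 5.44 times the higher control library, so the groups were far apart, although the control libraries differed from each other. The ratio of mean FPKM was 7.94, and the fitted change was 2.54 ± 0.22 (SE; adjusted p = 0.000161). NEAT1 had 1.54 and 1.802 FPKM in control and 7.86 and 6.97 in KD cells. Its control libraries lay close together and both KD libraries were well above them, with a ratio of 4.43 and a change of 1.65 ± 0.11 (adjusted p = 0.000119).

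KCNQ1OT1, the long antisense RNA of the KCNQ1 imprinted domain, was at 0.00728 and 0.0120 FPKM in control cells, from 10 and 19 reads, and at 0.0611 and 0.0910 in KD cells, from 111 and 161 reads. Its ratio of 7.90 was close to that of MALAT1, with no overlap between the groups. On the log2(FPKM + 1) scale the change was only 0.09 ± 0.04 and did not pass (adjusted p = 0.0933). The fit of the recovered reads gave 2.93 (adjusted p = 8.1e-05, limma-voom), and a pseudocount of 0.1 gave 0.68 (adjusted p = 0.0228). With GC content and gene length corrected, the value was -0.06. Whether the trend subtracted set that figure, at so low a level on this scale, was not tested.

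TUG1, an RNA of nucleus and cytoplasm, was at 2.64 and 4.70 FPKM in control and 13.8 and 16.1 in KD cells. All of its KD values were above all control values, with a ratio of 4.07 and a change of 1.803 ± 0.19 (adjusted p = 0.000259). MIR22HG had 2.37 and 2.59 FPKM in control and 4.11 and 4.42 in KD cells. Its libraries agreed closely within each group, and the smaller ratio of 1.72 passed the test (0.60 ± 0.12, adjusted p = 0.00405).

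NORAD, the PUMILIO-binding RNA, was at 20.1 and 33.0 FPKM in control and 55.9 and 58.0 in KD cells. The control libraries differed more than the KD libraries did, the groups did not overlap, and the ratio was 2.15 (1.12 ± 0.19, adjusted p = 0.00161). OIP5-AS1 was at 4.32 and 4.64 FPKM in control and 7.80 and 9.34 in KD cells, with a ratio of 1.91 and a change of 0.80 ± 0.12 (adjusted p = 0.000805). The groups did not overlap, but with GC content and length corrected the change of OIP5-AS1 was 0.09 (adjusted p = 0.465).

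GAS5 was at 41.0 and 30.9 FPKM in control and at 30.8 and 32.5 in KD cells. The KD values overlapped with the lower control library, and the change of -0.17 ± 0.12 did not pass (adjusted p = 0.281). Its direction turned with the control library left out and with the scaling: 0.03 without control replicate 1, -0.36 without control replicate 2 (adjusted p = 0.00409), 0.11 with libraries scaled to total reads and -0.40 with upper-quartile factors (adjusted p = 0.0419). With a library left out, its group has 1 library, which the fit assumes to vary like the other groups, here and wherever a library is left out below. SNHG1 was at 17.3 and 14.4 FPKM in control and 19.1 and 18.2 in KD cells. It was higher in both KD libraries but did not pass (0.23 ± 0.11, adjusted p = 0.102), and it was 0.35 without control replicate 1 (adjusted p = 0.0175), 0.50 when scaled to total reads (adjusted p = 0.00313) and -0.01 with upper-quartile factors.

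Scaling moved the whole comparison. Under the authors' size factors 49.7% of the calls were higher and the median change of all tested genes was -0.001; with total reads 65.3% of the calls were higher with a median of 0.13, and with upper-quartile factors 37.8% with a median of -0.11. The 6 members called higher were higher and called under each of the 3 scalings.

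The changes across all genes moved with GC content, and 8 of the 10 members are poorer in GC than the median gene. With the tested genes divided into 5 bins of equal size by GC content, the bin with the least GC, up to 41.5%, had a median change of 0.59 and 73.6% of its genes were higher, and the bin with the most had a median of -0.57 and 2.69% were higher. With TNF-α the same medians were -0.01 and 0.00. The median GC content of the tested genes was 48.5%. MALAT1 (40.6%) and OIP5-AS1 (40.3%) fell in the lowest bin, and NORAD, TUG1, SNHG1, GAS5, KCNQ1OT1 and NEAT1 (41.6% to 44.1%) in the next, where 48.1% of genes were higher and the median was 0.25. MIR22HG, at 50.4%, fell in the middle bin, where 18.7% were higher and the median was -0.02. After correction for GC content and length, MALAT1 was still 1.89 higher, TUG1 1.24, NEAT1 1.23, MIR22HG 0.84 and NORAD 0.67, each with an adjusted p of at most 0.0121, and GAS5 was lower by the test (-0.48, adjusted p = 0.0112).

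**Figure D2:**
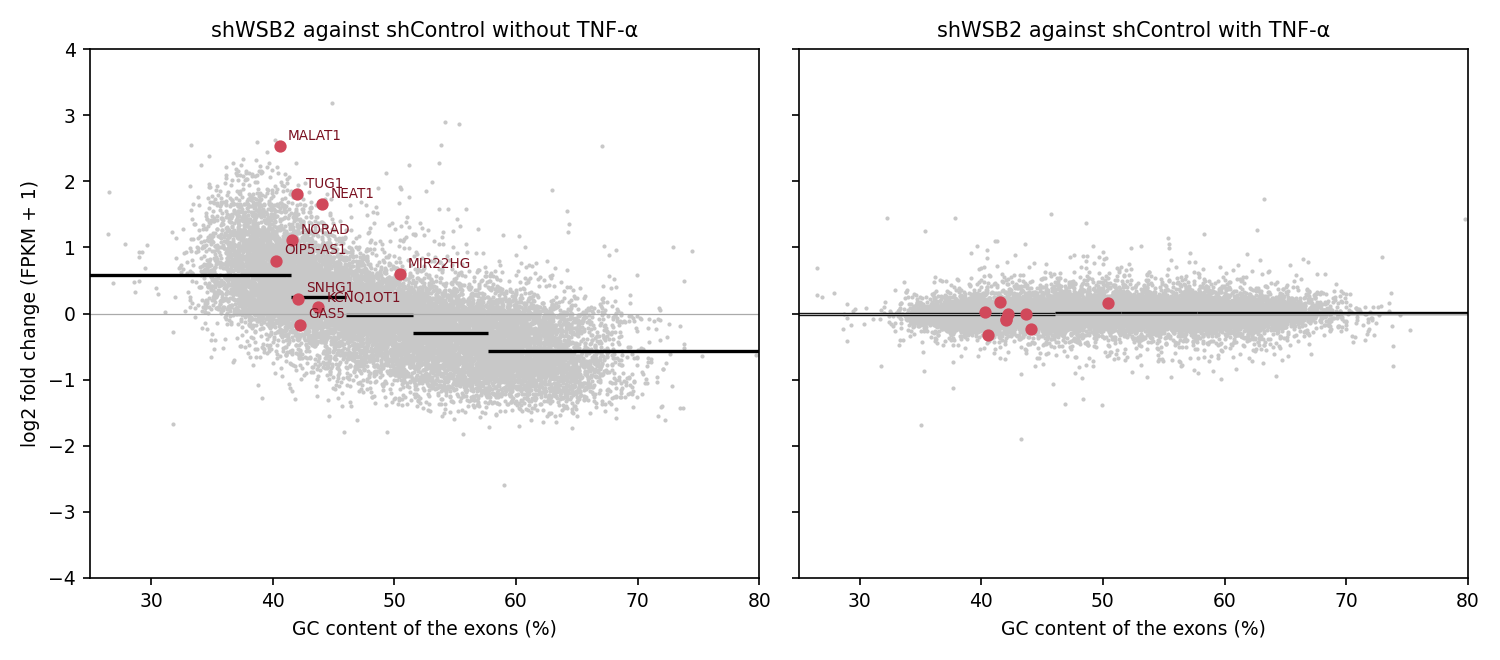
Change between KD and control cells on the log2(FPKM + 1) scale against the GC content of each gene's exons, without TNF-α (left, members labelled) and with it (right, members not labelled); grey points are the tested genes, red points the 9 tested lncRNAs and black lines the medians of the 5 bins by GC content. On the left the medians fall from 0.59 to -0.57, with MALAT1, TUG1 and NEAT1 above the line of their bin and GAS5 below it, and on the right they lie near 0.

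Seen as shares of all reads, the members made up more of the KD libraries without TNF-α whatever their class. MALAT1, NEAT1, KCNQ1OT1 and MEG3 together took 0.0383% and 0.0393% of reads there (exact 95% intervals 0.03735% to 0.03925% and 0.0384% to 0.0403%). In the other 6 libraries they took from 0.00335% (0.00309% to 0.003625%) to 0.00684% (0.00645% to 0.00724%). NORAD, OIP5-AS1, GAS5 and SNHG1 took 0.0702% (0.0689% to 0.0715%) and 0.0743% (0.0730% to 0.0757%) against 0.0314% (0.0306% to 0.0323%) to 0.0412% (0.0403% to 0.0422%). These intervals cover counting error only.

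The mean log2(FPKM + 1) of the 4 nuclear members minus that of the 4 cytoplasmic ones describes the balance between these members. No test was made of it, since the members were chosen with results known. It was -3.45 and -3.28 in control cells, -2.76 and -2.80 in KD cells, -3.27 and -3.22 in control cells with TNF-α and -3.42 and -3.41 in KD cells with TNF-α. The 2 KD libraries without TNF-α were thus the highest of the 8, by 0.58 over control cells on average. MEG3, at or near 0 everywhere, entered this mean, as did KCNQ1OT1, at no more than 0.0910 FPKM. The nuclear side therefore moved mostly with MALAT1 and NEAT1.

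With TNF-α the same KD comparison gave no call among the 9 members, where 0.115% of all tested genes were called, 0.0605% higher and 0.0545% lower. MALAT1 was at 2.56 and 1.87 FPKM in control and 1.35 and 1.76 in KD cells, and NEAT1 at 1.38 and 1.25 against 1.02 and 0.931. For both, the KD libraries were the lower ones, without overlap, by 0.32 ± 0.22 and 0.23 ± 0.11 on the log2 scale (adjusted p = 0.822 and 0.668). KCNQ1OT1 had 27 and 21 reads in control and 18 and 15 in KD cells, or 0.0185 and 0.0149 against 0.0114 and 0.0104 FPKM.

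TUG1 was at 4.32 and 4.34 against 3.87 and 4.14 FPKM, and MIR22HG at 2.53 and 1.91 against 2.46 and 2.71. Of the cytoplasmic RNAs, NORAD was at 29.8 and 27.6 against 32.0 and 33.3 FPKM, and OIP5-AS1 at 4.76 and 3.98 against 4.38 and 4.52. These 4 RNAs differed between the groups by no more than 1.17-fold in the ratio of mean FPKM. GAS5, at 28.0 and 26.1 against 26.9 and 26.6 FPKM, and SNHG1, at 13.7 and 12.0 against 11.8 and 12.3, had overlapping libraries. No member had an unadjusted p under 0.05 in this comparison, and limma-voom on the recovered reads also called 0.

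TNF-α in control cells was the comparison of cytokine with no cytokine where neither group was a KD group. Again 0 of 9 members were called, where 4.24% of all tested genes were (3.1% higher and 1.14% lower), and limma-voom called 0. GAS5 (-0.39 ± 0.12) and SNHG1 (-0.28 ± 0.11) had an unadjusted p under 0.05, and both had lower values in both libraries with TNF-α (adjusted p = 0.158 and 0.227, limma). MALAT1, TUG1, NORAD, MIR22HG and OIP5-AS1 overlapped between the groups, while NEAT1 was lower and KCNQ1OT1 higher without overlap (ratios of mean FPKM 0.786 and 1.73). Without control replicate 2 of the cells without TNF-α, 4 members were called: TUG1 (0.55) and NORAD (0.49) higher, GAS5 (-0.58) and SNHG1 (-0.41) lower.

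In KD cells TNF-α went with lower levels of most members. With TNF-α 7 of 9 were lower and none higher, where 62.5% of all tested genes were called, 31.4% lower and 31.1% higher; this comparison shares the KD libraries without TNF-α with the first. MALAT1 fell by 2.77 ± 0.22 (adjusted p = 7.0e-05, limma), to 0.0946 of its mean FPKM without TNF-α, and NEAT1 by 2.09 ± 0.11, to 0.132 of it. TUG1 fell by 1.67, OIP5-AS1 by 0.81, NORAD by 0.79, SNHG1 by 0.59 and MIR22HG by 0.55, each with no overlap between the groups. KCNQ1OT1 went from 111 and 161 reads to 18 and 15, a ratio of mean FPKM of 0.143 without overlap. On the log2(FPKM + 1) scale its change was only -0.09 and did not pass, while limma-voom on the recovered reads called it lower. The values of GAS5 were lower too, by a ratio of 0.845 (-0.23 ± 0.12, adjusted p = 0.136), and passed when only the 4 libraries compared were fitted (adjusted p = 0.0126) or with scaling to total reads (-0.60). With GC content and length corrected, MALAT1, NEAT1, TUG1 and MIR22HG remained called and NORAD, OIP5-AS1 and SNHG1 did not.

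**Figure D3:**
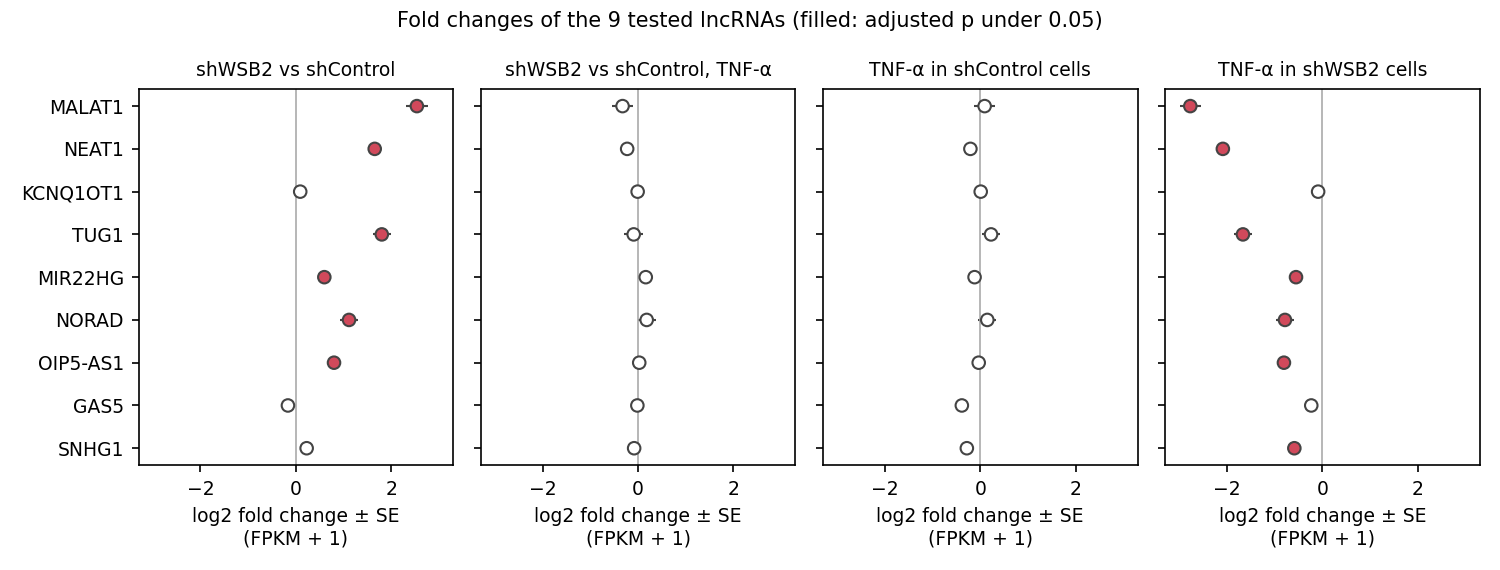
Change of the 9 tested lncRNAs on the log2(FPKM + 1) scale, with SE, in 4 comparisons; filled points passed an adjusted p under 0.05 (limma). In the first panel 6 are filled to the right of 0 and in the last 7 to the left of it, and none is filled in the 2 panels that do not use the KD libraries without TNF-α.

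The interaction tested whether the KD effect differed between cells with and without TNF-α. It was called for 5 of 9 members, all with a smaller KD effect in the presence of TNF-α, where 46.1% of all tested genes were called, 22.3% in that direction and 23.8% in the other. The values were -2.86 ± 0.32 for MALAT1 (adjusted p = 0.00135), -1.88 ± 0.16 for NEAT1 (0.00103), -1.89 ± 0.27 for TUG1 (0.00221), -0.78 ± 0.17 for OIP5-AS1 (0.00778) and -0.93 ± 0.27 for NORAD (0.0244), all limma. The call for NORAD was lost when any of the 6 libraries other than the control libraries without TNF-α was left out (adjusted p 0.0509 to 0.0764), and those for NORAD and OIP5-AS1 with GC content and length corrected. MIR22HG (-0.44, adjusted p = 0.0769), SNHG1 (-0.31, 0.132), GAS5 (0.15, 0.512) and KCNQ1OT1 (-0.10, 0.204) did not pass. By limma-voom on the recovered reads all 3 tested nuclear members, KCNQ1OT1 included, were called with a smaller KD effect (median -3.52). MIR22HG was called in that direction with total reads and with GC content and length corrected. Scaling to total reads also called 3 of the 4 cytoplasmic members. MIR22HG was called without replicate 2 of control cells with TNF-α (-0.57), SNHG1 without control replicate 1 of the cells without it (-0.43) and GAS5 without replicate 2 of those (0.35).

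Companion genes of the members were followed through the same first comparison, KD against control cells without TNF-α. Among 10 other nuclear lncRNAs, 8 were tested, and 4 were higher and none lower, with a median of 0.17 against -0.001 over all tested genes. The largest of these changes was that of SNHG14, the long transcript of the Prader-Willi imprinted region, at 0.61 (adjusted p = 0.00147), and the smallest called was that of MIAT, 0.14. FIRRE and FTX were the other 2. MIAT had 96 reads in all and reached 10 reads only in the KD libraries without TNF-α, where it was highest. It passed the filter through that group alone, so its call as higher was favoured in advance. Over all tested genes 29.8% were higher and 30.2% lower. With GC content and length corrected this list had 1 higher and 3 lower (median -0.16). Limma-voom on the recovered reads gave 4 higher and 0 lower (median 1.09). MIAT, FIRRE, LINC-PINT, JPX and FTX did not exceed 0.372 FPKM in any library. At such levels, as for KCNQ1OT1, the log2(FPKM + 1) scale understates changes, for the calls as for the corrected counts. Whether the trend subtracted set the corrected values was not tested. Of 8 names listed as other cytoplasmic lncRNAs, 7 were matched to a gene and 5 were tested. None was higher and 2 were lower, DANCR (-0.59) and H19 (-0.45), with a median of -0.20 (1 higher and 1 lower with total reads).

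Of 16 tested snoRNA host genes other than the members, 1 was higher, SNHG4 (1.05, adjusted p = 0.000364), and 7 were lower, down to SNHG7 (-1.06, adjusted p = 0.00125), with a median of -0.29. Scaled to total reads, 4 were higher and 4 lower (median -0.07). None of the 10 snoRNA names of GAS5 was matched in the annotation used here, and 6 of the 8 of SNHG1 were matched but none passed the filter.

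For the mRNAs of the proteins that meet these RNAs the counts turned on the setting. The proteins themselves were not measured here. Of 12 paraspeckle proteins, the partners of NEAT1, 2 were higher and 6 lower (median -0.21), from HNRNPH1 at 0.51 to RBM14 at -0.71. They were 2 and 3 with total reads (median 0.07), 1 and 10 with upper-quartile factors, and 0 and 10 with GC content and length corrected. Of 10 nuclear speckle proteins, 3 were higher and 2 lower (median 0.16), from PNISR at 1.75 to RNPS1 at -0.46. They were 7 and 1 with total reads (median 0.43), 2 and 4 with upper-quartile factors (median -0.08), and 4 and 4 with GC content and length corrected (median -0.21).

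Nonsense-mediated decay degrades spliced snoRNA host transcripts such as GAS5. Of the mRNAs of 10 of its factors, 4 were higher and 3 lower with a median of 0.05. With upper-quartile factors the median was -0.16, with 3 higher and 5 lower. UPF2 was highest at 1.81 (adjusted p = 0.000150) and SMG5 lowest at -0.73 (adjusted p = 0.000188). Of 6 imprinted neighbours of KCNQ1OT1 and MEG3, 4 were tested and 2 were lower, PHLDA2 (-1.05) and SLC22A18 (-0.59); with GC content and length corrected 2 were higher and 1 lower (median 0.13). Of 10 housekeeping mRNAs 9 were lower and none higher, from ALDOA (-0.46) to RPLP0 (-1.26), with a median of -0.85. With TNF-α none of the genes in these lists was called between KD and control cells.

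**Figure D4:**
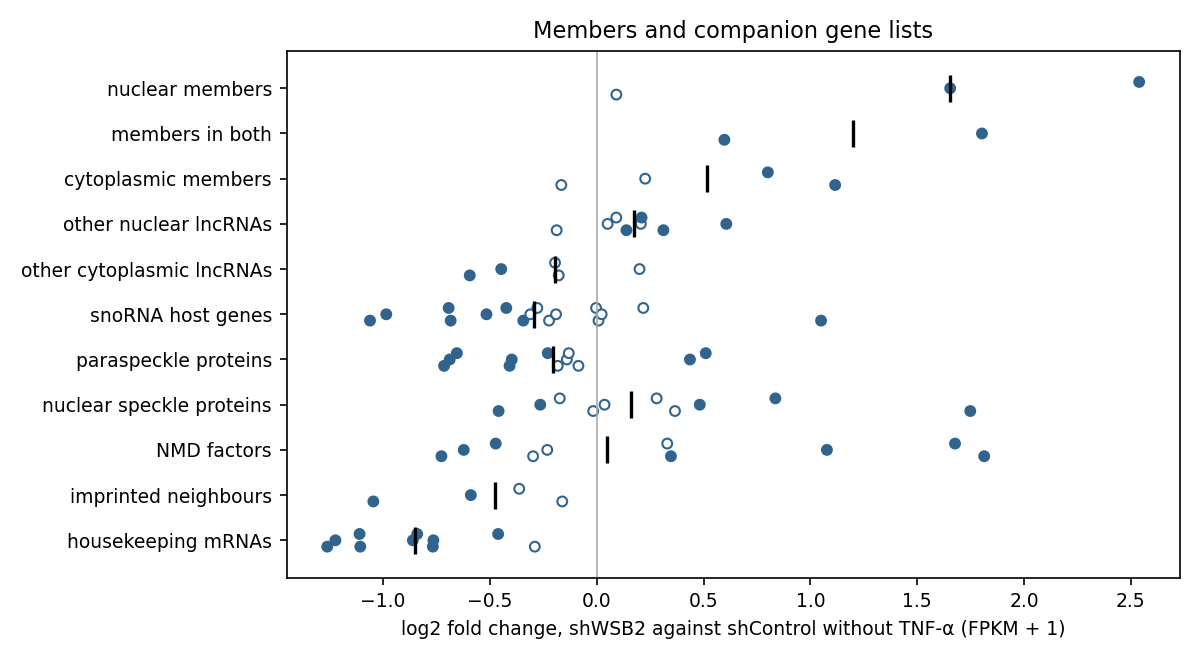
Change between KD and control cells without TNF-α, on the log2(FPKM + 1) scale, of the tested members by class and of the companion lists; filled points passed an adjusted p under 0.05 (limma) and black lines are medians. The nuclear members MALAT1 and NEAT1 lie to the right, with KCNQ1OT1 near 0. All 10 housekeeping mRNAs lie to the left with a median of -0.85, 9 of them called. Lists named by proteins or factors show the mRNAs.

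For each member, the 2 genes whose pattern over the 8 libraries was most like its own were found among 11625 tested genes with a mean of at least 1 FPKM, by the root mean square difference of log2(FPKM + 1) after centring. MALAT1 was nearest to ANKRD10-IT1 (0.178) and KNL1 (0.199), NEAT1 to DEPDC1 (0.129) and UACA (0.141), and TUG1 to CEP192 (0.0502) and QSER1 (0.0558). MALAT1 and NEAT1 were thus farther from their nearest genes than TUG1 was. NORAD was nearest to RNF169 and ANO6, OIP5-AS1 to HAUS3 and SUPT20H, MIR22HG to VPS36 and LEPROT, GAS5 to MFF and UBE2F, and SNHG1 to CALM2 and GMNN, at 0.0223 to 0.0607. KCNQ1OT1 was nearest to ELP2 and FARSB, on a scale where its own level hardly varied. ANKRD10-IT1 is a sense intronic lncRNA, and all of the others are protein coding.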

How the data were processed

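Total RNA of 8 U2OS libraries (4 groups of 2) was extracted with Trizol, made into libraries with Illumina kits and sequenced on an Illumina NovaSeq instrument. Whether poly(A) RNA was selected is not given in the sources used here. The submitters' processing notes name CASAVA 1.8, fastp, HISAT2 2.0.5, featureCounts 1.5.0-p3, DESeq2 1.20.0 and GRCh38. The authors deposited FPKM values per gene, scaled with size factors common to the 4 groups, and the gene lengths used. All 58735 identifiers, positions and lengths equalled those of GENCODE 29. Multiplied by gene length and divided by the worth of a single read in that library, 100% of the FPKM values were whole (tolerance 0.02 reads), which gave the reads, 15601098 to 18677023 per library.

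A gene entered the test if 2 or more libraries held 10 or more reads of it, scaled to the median depth, and all 8 together held 15 or more (16528 genes). The test was run on log2(FPKM + 1) with limma 3.58.1 in R 4.3.3, with a mean per group over the 8 libraries (4 residual degrees of freedom), a trended prior and Benjamini-Hochberg adjustment over all tested genes. A call is an adjusted p under 0.05. The edgeR test named in the study's methods was not run, since FPKM values are not counts. The script was tested on simulated data. Alternatives were a pseudocount of 0.1, no filter, a mean of at least 1 FPKM, upper-quartile factors, total reads, limma-voom on the recovered reads, a spline correction for GC content and length (5 degrees of freedom each), a replicate block, only the 4 libraries compared and leaving out each library.

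The members and lists were chosen with earlier results of these data known. The list of NORAD's protein partners is not reported here. All 10 members are named. Of each companion list the called genes with the highest and lowest change in KD cells without TNF-α are named, lists or calls of at most 4 genes may be named whole, and the 2 nearest genes by pattern are named. Exact intervals used scipy 1.17.1, with 3 counts as the floor; plots used matplotlib 3.10.9 with Python 3.11.15.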

Additional observations from a re-analysis of the deposited data

Results flagged for a closer look

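For 5 members the KD effect differed between cells with and without TNF-α by limma's interaction test. The KD effect with TNF-α minus that without was -2.86 on the log2(FPKM + 1) scale for MALAT1, -1.88 for NEAT1, -1.89 for TUG1, -0.93 for NORAD and -0.78 for OIP5-AS1. All 5 use the KD libraries without TNF-α, which stood apart from the other 6 in mitochondrial reads, GC content and genes detected. The effects of GC content and length can be compared: with both corrected, the values were -2.21 for MALAT1, -1.46 for NEAT1 and -1.33 for TUG1, which passed, and -0.48 for NORAD and -0.06 for OIP5-AS1, which did not. Groups of 2 libraries allow no test for a single outlying library.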

How the results depend on the processing

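In the alternatives with 2 libraries in each group, the number of members called in KD against control cells without TNF-α was 6 or 7. With TNF-α it was 0. The called members and their direction were not always the same. GAS5 was called lower with upper-quartile factors and with GC content and length corrected. With that correction OIP5-AS1 was not called. For TNF-α in control cells, leaving out a library gave 0 to 4 calls, the 4 without control replicate 2 of the cells without TNF-α. For TNF-α in KD cells the GC and length correction gave 4 calls in place of 7, and for the interaction the calls ranged from 4 to 7. The nuclear minus cytoplasmic level was 0.58 higher in KD than in control cells without TNF-α, 0.91 with a pseudocount of 0.1, 1.03 without MEG3 and with TUG1 counted as nuclear, 0.72 with the GC and length correction, and 0.49 to 0.66 with a library left out. KCNQ1OT1 was at a level where the log2(FPKM + 1) scale understates changes, and whether the trend subtracted by the GC and length correction set the sign is not known. The correction gave values of the opposite sign for KCNQ1OT1 in all 5 comparisons (-0.0552 for KD without TNF-α, 0.0292 for KD with it, -0.0267 for TNF-α in control cells, 0.0577 in KD cells and 0.0844 for the interaction). It turned the direction for SNHG1 in KD cells without TNF-α (-0.10) and the interaction (0.0214), and for GAS5 with TNF-α in KD cells (0.11). It turned for GAS5 with total reads (0.11 without TNF-α and -0.14 for the interaction) and for SNHG1 with upper-quartile factors (-0.00609). The cause was not tested for any of them, KCNQ1OT1 included. None of these values had passed the test as reported. Leaving out a library turned the direction of 10 values that had not passed, 2 of them (GAS5) named above, and leaves 1 library in a group, assumed to vary like the others: for KD without TNF-α, GAS5 ranged from -0.36 to 0.0320; for KD with TNF-α, OIP5-AS1 from -0.0797 to 0.13, GAS5 from -0.0639 to 0.0355 and SNHG1 from -0.17 to 0.00637; for TNF-α in control cells, MALAT1 from -0.24 to 0.42, TUG1 from -0.10 to 0.55, MIR22HG from -0.26 to 0.0194, NORAD from -0.20 to 0.49 and OIP5-AS1 from -0.14 to 0.0730; for the interaction, GAS5 from -0.0462 to 0.35. Deviations of replicate 1 from its group mean correlated by 0.35 between control and KD cells without TNF-α, over the 16528 tested genes. The other pairs of groups gave -0.19 to 0.02, so the numbers do not pair the samples across all 4 groups. Whether they pair the libraries without TNF-α was not tested. With a replicate block the calls were 6, 0, 0, 7 and 5 in the 5 comparisons, and no member's call changed. KCNQ1OT1 had too few reads, and MEG3 1 read, for the depth to show small changes.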

Other observations

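Over all 1862 tested genes of long noncoding RNA types, 26.5% were higher and 12.5% lower in KD cells without TNF-α than in control cells, with a median of 0.07 on the log2(FPKM + 1) scale. For the 13500 protein-coding genes the shares were 30% and 34% and the median -0.03. A gene passed the filter on reads in 2 libraries, so the KD libraries without TNF-α alone were enough, as for MIAT. A call as higher was favoured in advance for such genes, and their number was not counted. The split by gene type was not tested under another scaling, filter or correction. Over genes of all types, requiring a mean of at least 1 FPKM gave 28.2% higher and 40.8% lower, in place of 29.8% and 30.2%. With TNF-α 1 lncRNA gene was called between KD and control cells.

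In KD cells the companion lists of the members also differed between cells with and without TNF-α. Of the 8 tested other nuclear lncRNAs 7 were lower with TNF-α and none higher (median -0.19), where 31.4% of all tested genes were lower. With GC content and length corrected 2 were higher and 3 lower (median 0.05). Limma-voom on the recovered reads gave 0 higher and 7 lower (median -1.51). For those at low levels, whether the trend subtracted set the corrected value was not tested. Of the 10 housekeeping mRNAs 9 were higher and none lower (median 0.99), where 31.1% of all tested genes were higher. The 16 snoRNA host genes had 5 higher and 2 lower, and the mRNAs of the 12 paraspeckle proteins 6 higher and 2 lower. Scaled to total reads, these counts were 4 and 4 for the hosts and 3 and 5 for the paraspeckle proteins (median -0.09). This comparison shares its KD libraries without TNF-α with the KD comparison without TNF-α.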
